A study of Macaca mulatta with 449 samples.

Results

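The genes described here make, load and clear acetylcholine, or encode the muscarinic receptors that detect it, and they were chosen by their symbols in the gene count table. Of the 9 symbols listed, 7 had a named gene among the 30807 genes of the table: *CHAT*, *SLC18A3*, *CHRM1*, *CHRM2*, *CHRM3*, *CHRM4* and *CHRM5*. *SLC5A7* (the choline transporter) and *ACHE* (acetylcholinesterase) could not be matched to a gene of the table and were not analysed here. *CHRM2* was identified as ENSMMUG00000043456 by the gene names of the study. The reference table gives *CHRM2* another ID, ENSMMUG00000054019, which is not in the count table, so all *CHRM2* results rest on the naming by the study. The other genes were named by the reference table: *CHAT* is ENSMMUG00000004692, *SLC18A3* ENSMMUG00000047299, *CHRM1* ENSMMUG00000017292, *CHRM3* ENSMMUG00000021442, *CHRM4* ENSMMUG00000039412 and *CHRM5* ENSMMUG00000014227.

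Ribo-zero RNA-seq, which sequences RNA after removal of ribosomal RNA, had been done on brain samples of 8 rhesus macaques, and 8 samples from each of 51 sub-regions had counts that were used here. The animals carried no treatment in the labels. They were 2 young males (Rhesus 7 and 8), 2 young females (Rhesus 4 and 10), 2 mid-aged males (Rhesus 2 and 3) and 2 mid-aged females (Rhesus 6 and 11). Young animals were 3.2 to 5 years old and mid-aged animals 9.8 to 10 years old. For the comparison of structures, the counts of each animal were summed to 16 region groups: olfactory bulb (OB), cerebral cortex (31 sub-regions), entorhinal and perirhinal cortex (PA), amygdala (AMY), hippocampus (HIP), striatum (STR), globus pallidus (GP), corpus callosum (CC), thalamus (THA), hypothalamus (HTHA), pituitary (PIT), ventral tegmental area (VTA), substantia nigra (SN), pons (PON), medulla oblongata (MO) and cerebellum (CB). Every region group had 1 value from each of the 8 animals. Samples held 7784678 to 31083490 counts, with a median of 10698602. Levels are given as CPM, the count scaled to library size, with library sizes adjusted by TMM, a scaling that allows for differences in RNA composition.

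Cholinergic neurons make acetylcholine with choline acetyltransferase, the product of *CHAT*, and load it into synaptic vesicles with the vesicular acetylcholine transporter, the product of *SLC18A3*, whose gene lies within the *CHAT* locus. Their cell bodies are known from the striatum, the basal forebrain, the habenula, the motor nuclei of the brainstem and tegmental nuclei. The muscarinic receptors are G protein-coupled: M1, M3 and M5 (*CHRM1*, *CHRM3*, *CHRM5*) act through Gq and phospholipase C, and M2 and M4 (*CHRM2*, *CHRM4*) act through Gi and lower cyclic AMP.

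The labels of the deep structures were checked against marker genes. The summed level of 5 medium spiny neuron markers was 4419.7 to 5960.4 CPM in STR and at most 841 CPM in GP. The summed level of 4 dopamine neuron markers (*TH*, *SLC6A3*, *SLC18A2*, *NR4A2*) was 1406 to 3256 CPM in SN but only 41.4 to 485 CPM in VTA. Single libraries stood apart. The HTHA library of Rhesus 6 held 622 CPM of 4 cortical excitatory neuron markers against 10.8 to 18.5 CPM in the other HTHA libraries, and the GP library of Rhesus 3 held 841 CPM of the medium spiny neuron markers against 219.6 to 269 CPM. The MO library of Rhesus 6 had the highest oligodendrocyte marker sum of MO, 92804 CPM against 29934 to 65563 CPM. Values without these libraries are given beside the results they touch. In bulk tissue, fewer cells of a type and less RNA per cell cannot be told apart, which holds for all differences below.

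All 7 genes differed across the 16 region groups at FDR < 0.05 (edgeR's quasi-likelihood test with the animal as a block, Benjamini-Hochberg adjustment over 16829 genes). This count says little about these genes in particular, since 99.7% of all genes tested passed. The genes fell into clearly different patterns. *CHAT* and *SLC18A3* were near 0 in most structures and present in a few deep ones. *CHRM1* and *CHRM4* were highest in OB, cortex, PA, AMY, HIP and STR. *CHRM2* and *CHRM3* were also high in THA and PON, and *CHRM5* was low outside SN and HTHA.

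**Figure D1:**
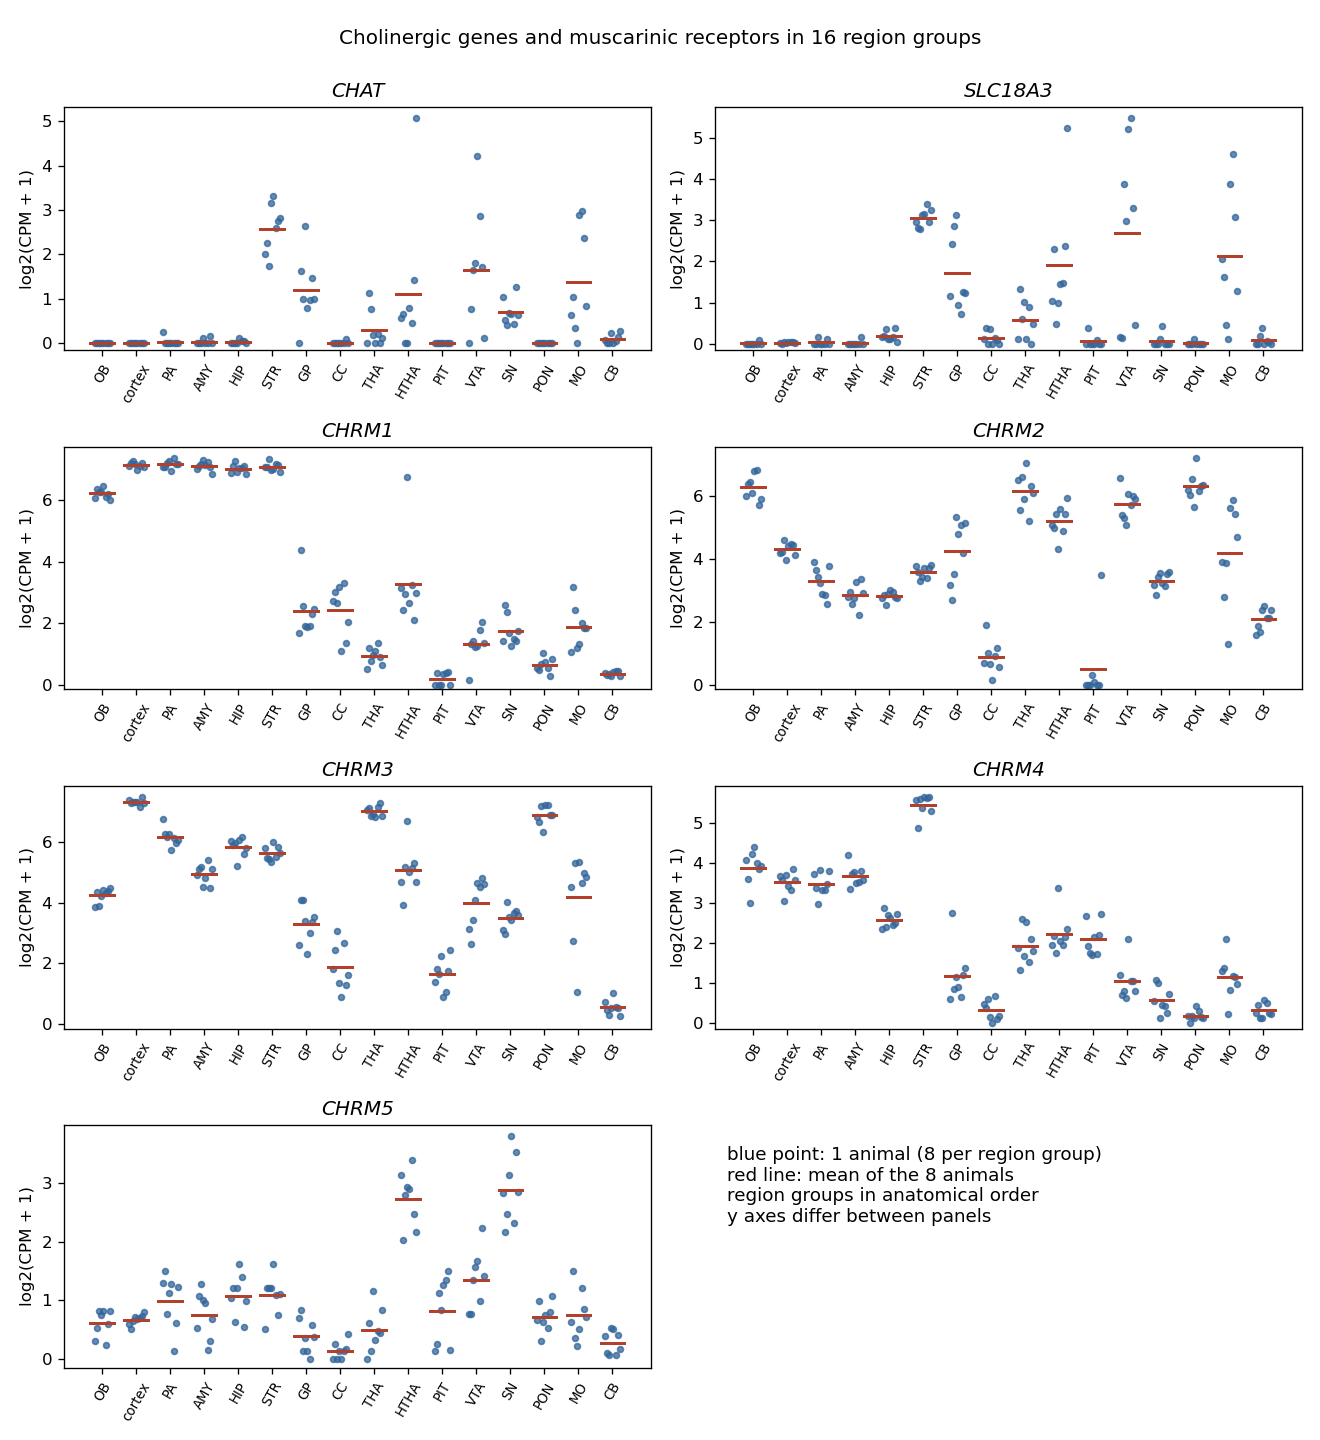
Level of each of the 7 genes, as log2(CPM + 1), in the 16 region groups, with 1 point per animal (n = 8) and the mean as a line; y axes differ between panels. *CHAT* and *SLC18A3* lie near 0 outside STR, GP, THA, HTHA, VTA, SN and MO, and single animals lie far above the others for *CHAT* in HTHA (32.4 CPM) and *CHRM1* in HTHA (107 CPM).

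*CHAT* was expressed most steadily in STR, at 2.36 to 8.90 CPM (median 5.40, mean 5.36 ± 2.30 SD, n = 8). HTHA ranged from 0 to 32.4 CPM with a median of 0.5263, VTA from 0 to 17.5 with a median of 2.24, and MO from 0 to 6.89 with a median of 0.922. STR was thus the highest by its mean and its median, and it was also the structure in which every animal exceeded 2 CPM. GP ranged from 0 to 5.27 CPM (median 0.991), SN from 0.330 to 1.40 CPM (median 0.572) and THA from 0 to 1.18 CPM (median 0.107). The remaining 9 region groups had means of at most 0.0730 CPM, reached in CB, and OB, PIT and PON had no *CHAT* count in any animal.

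*SLC18A3* was highest by its mean in VTA, with 0.101 to 43.3 CPM (median 7.86, mean 13.7 ± 16.9 SD), so that its animals ranged from almost none to the highest value of any structure. STR came next and was much more even, at 5.93 to 9.53 CPM (median 7.26, mean 7.40 ± 1.25). MO ranged from 0.0815 to 23.2 CPM (median 2.63), HTHA from 0.394 to 36.5 CPM (median 1.76) and GP from 0.642 to 7.77 CPM (median 1.37). THA followed with a mean of 0.554 ± 0.532 CPM, and the means of the other 10 region groups were at most 0.149 CPM, reached in HIP.

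The high HTHA values of both genes came from 1 animal. In Rhesus 11, *CHAT* was 32.4 CPM and *SLC18A3* 36.5 CPM, whereas the other 7 animals lay at or below 1.69 CPM for *CHAT* and 4.16 CPM for *SLC18A3*. Without Rhesus 11 the HTHA means were 0.548 ± 0.572 CPM for *CHAT* and 2.01 ± 1.47 CPM for *SLC18A3* (n = 7). *LHX8*, a transcription factor of basal forebrain cholinergic neurons, was also highest in that library, at 35.7 CPM against at most 3.97 CPM in the other animals. *NGFR*, a neurotrophin receptor of these neurons, was 239.6 CPM against at most 10.6 CPM. *NKX2-1* and *ISL1*, regulators that hypothalamic neurons share, were not highest there, at 4.42 and 11.7 CPM against 9.17 and 16.5 CPM in Rhesus 8. The part of these transcripts in the *CHAT* level was not tested.

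The brainstem values of the cholinergic neuron genes varied as widely between animals. In VTA, *SLC18A3* was 13.6, 36.3, 43.3 and 8.79 CPM in the young Rhesus 4, 7, 8 and 10, and 0.117, 0.101, 6.92 and 0.367 CPM in the mid-aged Rhesus 2, 3, 6 and 11. The summed level of *ISL1* and *PRPH*, the only usable genes of a cranial motor neuron list, ranged from 0.826 CPM (Rhesus 11) to 34.6 CPM (Rhesus 8) in VTA and from 0.350 to 2.81 CPM in SN. In MO, *SLC18A3* was highest in Rhesus 8 (23.2 CPM), Rhesus 7 (13.7 CPM) and Rhesus 10 (7.39 CPM), and the same sum was highest in Rhesus 8 (57.0 CPM) and Rhesus 7 (43.7 CPM). The part of motor neuron transcripts in these levels was not tested.

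The receptor genes were present in more structures and with less spread. *CHRM1*, the M1 receptor gene, had similar levels in PA (125 to 166 CPM), cortex (127 to 156 CPM), AMY (116 to 157 CPM), STR (121 to 163 CPM) and HIP (116 to 155 CPM), with means of 131 to 144 CPM. OB followed at 63.2 to 87.8 CPM (mean 74.3 ± 8.26), below HIP in 8 of 8 animals by 0.81 ± 0.15 (SD) on the log2(CPM + 1) scale. In all other region groups, GP (median 3.33 CPM) and CC (median 5.48 CPM) among them, the medians were at most 6.77 CPM, in HTHA. They were under 1 CPM in THA, PON, CB and PIT. The first 5 structures thus overlapped widely, and the smallest unadjusted p between neighbours among them was 0.0469, for STR over HIP.

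*CHRM2*, the M2 receptor gene, had a different order. PON was highest by its mean (49.2 to 147 CPM, median 75.3), followed by OB (51.6 to 113 CPM, median 74.6), THA (35.5 to 130.0 CPM, median 72.6) and VTA (32.7 to 93.8 CPM, median 55.2). These 4 structures overlapped. HTHA, MO and GP had means of 37.7 ± 12.8, 25.8 ± 20.8 and 21.7 ± 13.1 CPM, and cortex 18.8 ± 2.88 CPM. Cortex was above STR (11.1 ± 1.58 CPM) in 8 of 8 animals, by 0.71 ± 0.33 on the log2(CPM + 1) scale. The lowest structures were CC, with a mean of 0.949 ± 0.804 CPM, and PIT, where 1 animal had 10.1 CPM and the other 7 at most 0.221 CPM.

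*CHRM3*, the M3 receptor gene, was highest in cortex (141 to 180.3 CPM), followed by THA (114 to 155 CPM) and PON (80.0 to 150.5 CPM), which overlapped with it. PA (52.9 to 107 CPM) was below PON in 8 of 8 animals, by 0.73 ± 0.51 on the log2(CPM + 1) scale. HIP (57.6 ± 11.2 CPM), STR (49.3 ± 8.26), HTHA (38.5 ± 27.7), AMY (30.5 ± 6.98) and MO (23.6 ± 14.04) followed, and no step between neighbours in this stretch held in every animal. CB was lowest, at 0.209 to 1.05 CPM.

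*CHRM4*, the M4 receptor gene, had 1 clear peak. STR, at 27.9 to 48.8 CPM, was above OB (6.91 to 20.1 CPM) in 8 of 8 animals without overlap, by 1.57 ± 0.47 on the log2(CPM + 1) scale. OB, AMY, cortex and PA overlapped, with means of 14.2 ± 4.03, 11.9 ± 2.51, 10.5 ± 1.90 and 10.3 ± 2.20 CPM. HIP (4.96 ± 0.776 CPM) was below PA in 8 of 8 animals, by 0.90 ± 0.30, and the remaining structures had means of at most 3.91 CPM.

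Each pair of neighbours in the order of mean levels was compared by an exact two-sided sign-flip permutation test over the 8 animals. Of the 105 neighbour pairs, 20 had an unadjusted p under 0.05 but 0 passed after Benjamini-Hochberg adjustment, the smallest adjusted p being 0.103, and 8 had the smallest p that 8 animals allow (0.00781). With 105 pairs adjusted together and this smallest p, so few pairs could not pass, and a pair that missed the threshold is not shown to be alike. These 8 pairs, each higher in 8 of 8 animals, were *CHRM1* in HIP over OB, *CHRM2* in cortex over STR and in HIP over CB, *CHRM3* in PON over PA and in GP over CC, *CHRM4* in STR over OB and in PA over HIP, and *CHRM5* in HTHA over VTA. No neighbouring pair of *CHAT* or *SLC18A3* was among them.

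*CHAT* and *SLC18A3* moved together over structures, but not in SN. Over the 51 sub-regions their mean log2(CPM + 1) had a Pearson r of 0.974, which rested on the 20 non-cortical sub-regions (r = 0.965), since it was 0.251 over the 31 cortical ones. All points share the same 8 animals. The counts of *CHAT* were 42.5% of the summed counts of the pair in STR (exact 95% interval 40.8 to 44.3%), 36.4% in GP, 42.2% in HTHA, 28.2% in MO and 21.7% in VTA. In SN they were 93.9% (exact 95% interval 85.2 to 98.3%), from 62 counts of *CHAT* against 4 counts of *SLC18A3*, and *CHAT* was above *SLC18A3* in 8 of 8 animals. These intervals cover counting error only.

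The difference log2(*CHAT* CPM + 1) minus log2(*SLC18A3* CPM + 1) was 0.64 ± 0.35 (SD, n = 8) in SN and -0.47 ± 0.45 in STR. All 8 animals had the higher value in SN, which gave p = 0.00781, the smallest possible in an exact two-sided permutation test by sign flips, and an adjusted p of 0.00977. Against VTA the difference was higher in SN in 7 of 8 animals (adjusted p = 0.0156), and against MO, HTHA and GP in 8 of 8 animals each (adjusted p = 0.00977). These 5 comparisons were chosen after the values were seen. The *CHAT* level in SN was low, with 3 to 17 counts per animal. The genes overlap, and the option by which reads on overlapping genes were counted is not given in the sources used here, so that the division of reads between them is uncertain in every structure.

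**Figure D2:**
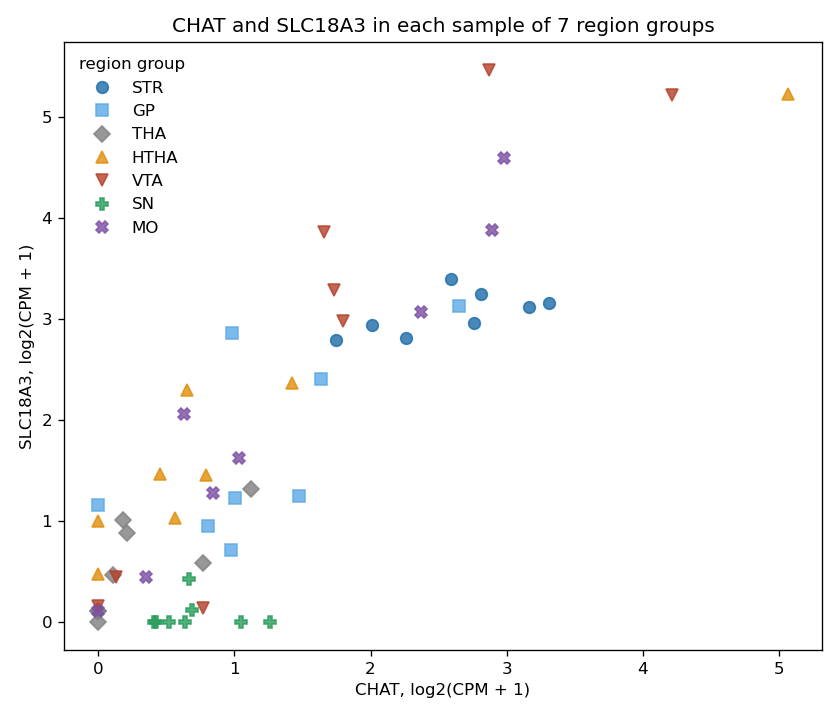
*CHAT* against *SLC18A3*, both as log2(CPM + 1), with 1 symbol per animal and region group (8 animals, 7 region groups). The SN samples lie along the bottom with *CHAT* but little or no *SLC18A3*, while the samples of the other region groups rise together.

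The striatum and the cortex were compared because striatal interneurons are cholinergic and both structures are dense in muscarinic receptors. Of the 7 genes, 4 were called different between STR and cortex (FDR < 0.05 and more than 2-fold), against 16.9% of all genes tested. *CHAT*, *SLC18A3* and *CHRM4* were higher in STR (background 8.73%), and *CHRM3* was lower (background 8.18%). *CHAT* was 2.36 to 8.90 CPM in STR and 0 to 0.00996 CPM in cortex, without overlap. Cortex held only 6 *CHAT* counts, in 5 of 248 samples, which gives a ratio of depth-scaled counts of 2564 (exact 95% counting interval 1175 to 7000) and 4896 without Rhesus 4, the source of 3 of the 6. *SLC18A3* was 5.93 to 9.53 CPM in STR and 0 to 0.0302 CPM in cortex, again without overlap. Its log2FC was 8.57 (SE 0.72, FDR = 4.66e-20), with 48 counts in 39 of the 248 cortical samples.

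Among the receptors, *CHRM4*, the Gi-coupled receptor of striatal projection neurons and interneurons, was 27.9 to 48.8 CPM in STR (median 46.6) and 7.27 to 13.3 CPM in cortex (median 10.8). STR was higher in 8 of 8 animals, by a log2FC of 2.04 (SE 0.25, FDR = 4.49e-12). *CHRM3*, the Gq-coupled M3 receptor, was 40.1 to 64.0 CPM in STR and 141 to 180 CPM in cortex. It was lower in STR in 8 of 8 animals, by a log2FC of -1.70 (SE 0.28, FDR = 9.41e-08). *CHRM1*, the main postsynaptic receptor of cortical and striatal neurons, was 121 to 163 CPM in STR and 127 to 156 CPM in cortex, largely overlapping (log2FC -0.04, SE 0.29, FDR = 0.912). *CHRM2* had a log2FC of -0.78 (SE 0.34, FDR = 0.0473) and *CHRM5* of 0.94 (SE 0.33, FDR = 0.0111), both below 2-fold.

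Genes around acetylcholine were examined in the same comparison as 4 lists. Of 7 measured regulators and other genes typical of cholinergic neurons, 7 were higher in STR, where 8.73% of all genes were higher; their median log2FC was 3.65, against 0.01 over all genes tested. *ISL1* was 10.5 CPM in STR and 0.00487 CPM in cortex, and *LHX8* 9.47 and 0.0416 CPM. *ISL1* is also a gene of striatal projection neurons. Of 14 tested nicotinic receptor subunits, 2 were higher (*CHRNA9*, *CHRNB4*, both below 0.35 CPM) and 4 were lower (*CHRNA2*, *CHRNA4*, *CHRNA6*, *CHRNA7*) in STR, with a median log2FC of -0.24. Of 8 genes of choline supply and acetylcholine breakdown, only *PRIMA1*, which anchors acetylcholinesterase to neuronal membranes, was called, at 36.3 CPM in STR and 3.34 CPM in cortex (log2FC 3.45, SE 0.22). Of 17 tested genes of muscarinic receptor coupling, 3 were higher, among them *ADCY5*, the adenylyl cyclase of striatal neurons (1015 against 106 CPM), and *RGS9* (176 against 2.84 CPM). A further 4 were lower, among them *KCNJ3*, a channel subunit opened by M2 receptors (5.48 against 71.4 CPM).

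Within the striatum, the putamen (PUT), caudate nucleus (CN) and accumbens nucleus (ACb) differed in all 7 genes at FDR < 0.05, where 57% of all genes tested did. *CHRM3* was highest in PUT. It was 71.3 to 120.4 CPM in PUT (median 95.1), 25.2 to 48.2 CPM in CN (median 40.3) and 10.2 to 34.2 CPM in ACb (median 22.03). PUT did not overlap with CN or ACb, and its log2FC was 1.29 (SE 0.14, FDR = 1.77e-06) against CN and 2.06 (SE 0.15, FDR = 2.37e-09) against ACb.

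*CHRM5*, the Gq-coupled M5 receptor, was lowest in PUT. It was 0 to 0.589 CPM in PUT (median 0.262, 19 counts in all), 0.514 to 2.76 CPM in CN (median 1.85) and 0.629 to 3.08 CPM in ACb (median 1.24). PUT was lower than both in 8 of 8 animals, with log2FC of -2.73 (SE 0.39, FDR = 3.15e-05) against CN and -2.46 (SE 0.41, FDR = 5.45e-05) against ACb. *SLC18A3* was 7.21 to 17.1 CPM in PUT, 1.84 to 4.62 CPM in CN and 2.01 to 11.1 CPM in ACb. PUT was higher than CN without overlap (log2FC 1.74, SE 0.27, FDR = 6.76e-05) and higher than ACb in 8 of 8 animals (log2FC 1.06, SE 0.26, FDR = 0.00234). The latter fell below 2-fold when Rhesus 2 or Rhesus 10 was left out (log2FC 0.91 and 0.98).

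PUT against ACb thus called 3 of the 7 genes, where 8.75% of all genes were called, 3.6% as higher and 5.15% as lower. PUT against CN called the same 3 genes, where 4.82% of all genes were called, 1.56% as higher and 3.26% as lower. These comparisons share the PUT samples. *CHAT* went in the same direction, with 7.76 ± 4.35 CPM in PUT, 3.65 ± 1.62 CPM in CN and 4.74 ± 2.65 CPM in ACb. It did not pass both thresholds, with a log2FC of 0.96 (SE 0.30, FDR = 0.0197) against CN and 0.69 (SE 0.29, FDR = 0.0571) against ACb. Against CN it passed both without Rhesus 2, 3, 4 or 10 (log2FC 1.00 to 1.15, FDR 0.00835 to 0.0273) and without the animal block (log2FC 1.10, FDR = 0.0440). *CHRM4* separated the dorsal striatum from ACb, at 51.1 ± 8.55 CPM in PUT, 50.4 ± 9.48 CPM in CN and 26.999 ± 6.33 CPM in ACb. It was higher in 8 of 8 animals in both comparisons, but by less than 2-fold (log2FC 0.93, SE 0.10, FDR = 2.79e-07 for PUT and 0.89, SE 0.10, FDR = 3.38e-06 for CN). CN against ACb called 0 of the 7 genes with edgeR, where 3.96% of all genes were called. Of the 7, 4 had an unadjusted p under 0.05, as had 6716 of all 14827 genes tested. The count of 4 thus says little about these genes in particular. Between CN and ACb, *CHRM4*, *CHRM3* (log2FC 0.77, SE 0.15, FDR = 0.00065) and *CHRM1* (log2FC 0.22, SE 0.06, FDR = 0.00985) passed FDR < 0.05 but not the 2-fold threshold.

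**Figure D3:**
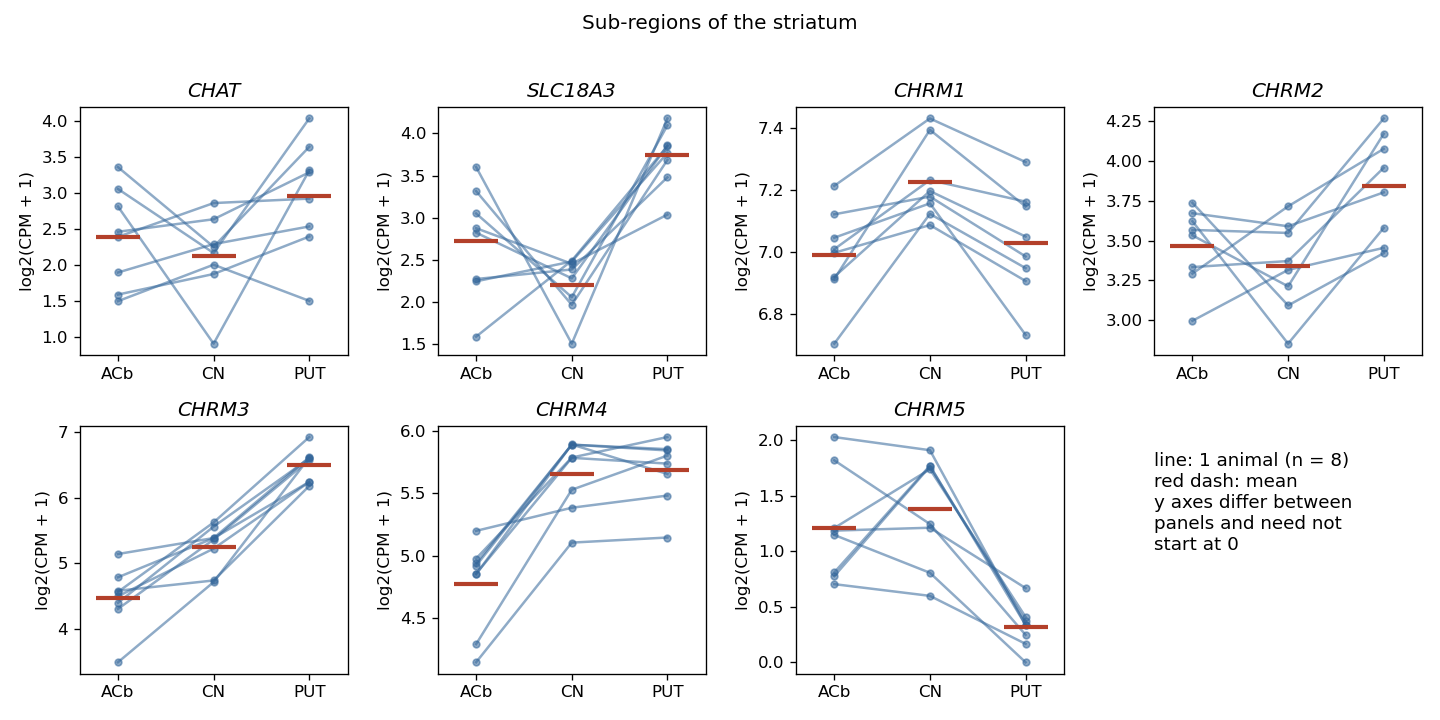
The 7 genes in the accumbens nucleus (ACb), caudate nucleus (CN) and putamen (PUT), as log2(CPM + 1), with 1 line per animal (n = 8) and the mean as a red dash; y axes differ and need not start at 0. *CHRM3* rises from ACb to PUT in every animal and *CHRM5* is lowest in PUT in every animal.

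Cell composition also differed between these sub-regions. The summed level of 6 oligodendrocyte markers had medians of 17907 CPM in PUT, 5878 CPM in CN and 4722 CPM in ACb. That of the medium spiny neuron markers was 4240 to 6552 CPM in PUT, 4765 to 6629 CPM in CN and 3106 to 4790 CPM in ACb. Their part in the differences of the cholinergic genes was not tested. Among the lists, PUT was higher than ACb for *SLC44A1*, *BCHE*, *NGFR*, *PLCB1*, *RGS4* and *RGS9*, and lower for the nicotinic subunit *CHRNA10* (1.21 against 2.92 CPM). *SLC44A1*, a choline transporter, was 218 CPM in PUT and 83.2 CPM in ACb.

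Globus pallidus was compared with the striatum that projects to it. Of the 7 genes, 6 were called and all 6 were lower in GP, where 29.6% of all genes were called and 15.3% were lower. The largest falls were those of *CHRM1* (2.23 to 19.9 CPM in GP against 121 to 163 CPM in STR) and *CHRM4* (0.495 to 5.64 CPM against 27.9 to 48.8 CPM). Neither overlapped between the structures, and the log2FC were -4.77 (SE 0.35, FDR = 1.00e-23) and -4.85 (SE 0.31, FDR = 2.64e-28). The highest GP values of both genes were from Rhesus 3, the library with the high medium spiny neuron marker sum. Without Rhesus 3 the log2FC were -5.32 for *CHRM1* and -5.50 for *CHRM4*.

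*CHRM3* was lower in GP by a log2FC of -2.35 (SE 0.30, FDR = 1.38e-11) and *CHRM5* by -1.88 (SE 0.46, FDR = 0.000189). *CHRM2*, the Gi-coupled autoreceptor of cholinergic neurons, went the other way, at 5.42 to 38.9 CPM in GP (median 22.1) and 8.75 to 13.02 CPM in STR (median 11.5). It was higher in 6 of 8 animals but did not reach 2-fold (log2FC 0.95, SE 0.35, FDR = 0.0142), and it passed 2-fold when Rhesus 2, 3, 4 or 10 was left out. *CHAT* was lower in GP in 8 of 8 animals (log2FC -1.70, SE 0.62, FDR = 0.0124) and *SLC18A3* in 6 of 8 animals (log2FC -1.29, SE 0.56, FDR = 0.0333). Neither was called by DESeq2 (adjusted p = 0.130 and 0.107), and *SLC18A3* was not called without Rhesus 2, 7, 8 or 10 (log2FC -1.10 to -1.17, FDR 0.0746 to 0.113). Oligodendrocyte markers summed to 49445 to 106172 CPM in GP and 6805 to 12190.0 CPM in STR, and their part in these falls was not tested.

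Medulla oblongata and pons adjoin each other but differed in 6 of the 7 genes, where 11.7% of all genes were called. MO was higher for 4 of them (background 8.2%) and lower for 2 (background 3.45%). Cholinergic neuron genes were detected in MO and almost absent from the PON samples. The paper states that a small piece of tissue was taken from each region, so these values do not describe the whole pons. *CHAT* was 0 to 6.89 CPM in MO (median 0.922) and 0 in all PON samples, which makes it at least 68.5-fold higher in MO, taking 3 counts over the whole PON group as the limit, and at least 44.9-fold without Rhesus 8. *SLC18A3* was 0.0815 to 23.2 CPM in MO against a single count in PON, a count ratio of 522 (exact 95% counting interval 93.3 to 20646). Rhesus 8 gave 263 of the 559 MO counts, and without it the ratio was 281, while without Rhesus 6, which held the PON count, *SLC18A3* was at least 170.3-fold higher. The receptors *CHRM2* and *CHRM3* had the opposite order. *CHRM2* was 1.47 to 57.3 CPM in MO (median 19.3) and 49.2 to 147 CPM in PON (median 75.3), lower in MO in 8 of 8 animals (log2FC -1.73, SE 0.36, FDR = 3.08e-05). *CHRM3* was 1.06 to 39.8 CPM in MO and 80.0 to 151 CPM in PON without overlap (log2FC -2.39, SE 0.29, FDR = 2.07e-11).

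The low-level receptors *CHRM1* and *CHRM4* were higher in MO than in PON. *CHRM1* was 1.09 to 8.03 CPM in MO and 0.210 to 1.03 CPM in PON (log2FC 2.39, SE 0.53, FDR = 0.000104), and *CHRM4* had 10 counts in all PON samples, with a count ratio of 10.8 (5.68 to 23.2). *CHRM5* was similar in level, at 0.752 ± 0.565 CPM in MO and 0.664 ± 0.281 CPM in PON (log2FC 0.19, SE 0.47, FDR = 0.765). The lowest MO values of *CHAT*, *SLC18A3*, *CHRM2* and *CHRM3* were all from Rhesus 6, the library with the highest oligodendrocyte marker sum. Without that library the MO means were 2.88 ± 2.89 CPM for *CHAT*, 7.34 ± 8.38 CPM for *SLC18A3*, 29.3 ± 19.8 CPM for *CHRM2* and 26.9 ± 11.5 CPM for *CHRM3* (n = 7), and without Rhesus 6 in the fit the log2FC were -1.63 for *CHRM2* and -2.30 for *CHRM3*. PON held 489 to 686 CPM of the cortical excitatory neuron markers, against 15.9 to 157 CPM in MO. Their part in the *CHRM3* difference was not tested. Of the genes typical of cholinergic neurons, 4 of 7 were higher in MO (among them *ISL1*, *GBX1* and *NGFR*), where 8.2% of all genes were, and *ZIC4* was lower (31.3 against 134 CPM), where 3.45% were. *ISL1* was 0 in 5 of the 8 MO libraries, and *GBX1* was 8.61 CPM in Rhesus 4 against at most 1.37 CPM in the others.

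Substantia nigra and ventral tegmental area, the dopaminergic structures of the midbrain, differed in 5 of the 7 genes, where 5.91% of all genes were called. SN was higher for 1 of them (background 2.59%) and lower for 4 (background 3.32%). *CHRM5*, the muscarinic receptor of dopamine neurons, was 3.46 to 12.9 CPM in SN (median 6.17) and 0.704 to 3.70 CPM in VTA (median 1.59). SN was higher in 8 of 8 animals, although the groups overlapped slightly (log2FC 2.05, SE 0.36, FDR = 2.18e-06). *CHRM2* had the opposite order without overlap, at 6.27 to 10.9 CPM in SN and 32.7 to 93.8 CPM in VTA (log2FC -2.61, SE 0.38, FDR = 1.62e-08).

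*SLC18A3* had 4 counts in all SN samples and 0.101 to 43.3 CPM in VTA, a count ratio of 311 (exact 95% counting interval 121 to 1145) in favour of VTA. Without Rhesus 7, which gave 3 of these 4 counts, the ratio was 888, and without Rhesus 8, which gave 527 of the 1196 VTA counts, it was 183. *CHAT* was also lower in SN, with a log2FC of -2.19 (SE 0.73, FDR = 0.0161), but SN was higher in 2 of 8 animals. It was not called by DESeq2 (adjusted p = 0.0954), nor without Rhesus 7 (log2FC -1.39, FDR = 0.204) or Rhesus 8 (log2FC -1.84, FDR = 0.0812). *CHRM4* was lower in SN by a log2FC of -1.19 (SE 0.43, FDR = 0.0259), and not called without Rhesus 2, 7, 8 or 10. *CHRM1* (log2FC 0.58, FDR = 0.367) and *CHRM3* (log2FC -0.67, FDR = 0.0791) were not called.

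The dopamine neuron markers were 1406 to 3256 CPM in SN and 41.4 to 485 CPM in VTA, so that the samples differed in dopamine neuron transcripts as well as in *CHRM5*. The part of the markers in the *CHRM5* difference was not tested. Nicotinic receptor subunits moved in the same comparison: of 14 tested, 4 were higher in SN (*CHRNA3*, *CHRNA4*, *CHRNA5*, *CHRNA6*), where 2.59% of all genes were higher, and 2 were lower (*CHRNA2*, *CHRNA9*). *CHRNA6*, a subunit of dopamine neurons, was 35.9 CPM in SN and 5.99 CPM in VTA (log2FC 2.63, SE 0.29), and *CHRNA2* 0.673 CPM in SN and 48.9 CPM in VTA (log2FC -6.18, SE 0.58). Of the coupling genes, *GNA14* and *KCNJ6* were higher and *KCNQ5* was lower in SN.

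*CHRM5* was likewise high in HTHA, at 3.07 to 9.54 CPM (median 6.19, mean 5.93 ± 2.19). SN and HTHA did not differ beyond their spread as neighbours in the order. The level of HTHA did not rest on the libraries that stood apart, since the mean without Rhesus 6 and 11 was 6.23 ± 2.30 CPM (n = 6). In all other region groups the mean of *CHRM5* was at most 1.68 CPM. The other receptors were affected in HTHA by Rhesus 6, the library with cortical markers, in which *CHRM1* was 107 CPM, *CHRM3* 104 CPM and *CHRM4* 9.30 CPM. Without it, the HTHA means were 6.11 ± 1.86 CPM for *CHRM1*, 29.1 ± 8.42 CPM for *CHRM3* and 3.14 ± 0.535 CPM for *CHRM4* (n = 7).

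Thalamus was compared with the cortex it supplies. It differed in 5 of the 7 genes, where 19.7% of all genes were called, with 3 higher (background 9.81%) and 2 lower (background 9.92%). *CHRM1* was nearly absent from THA, at 0.414 to 1.55 CPM in THA and 127 to 156 CPM in cortex (log2FC -7.29, SE 0.42, FDR = 9.38e-31). *CHRM2* was higher in THA without overlap, at 35.5 to 130.0 CPM against 14.7 to 23.4 CPM (log2FC 1.97, SE 0.35, FDR = 6.80e-07). *CHRM4* was lower, at 1.499 to 5.06 CPM against 7.27 to 13.3 CPM (log2FC -1.83, SE 0.27, FDR = 3.43e-09).

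*CHRM3* in THA, at 114 to 155 CPM, overlapped with its cortical level of 141 to 180 CPM (log2FC -0.30, SE 0.27, FDR = 0.355), so that of the Gq-coupled receptors *CHRM1* was called and *CHRM3* was not. *SLC18A3* was higher in THA by a log2FC of 4.69 (SE 0.85, FDR = 9.97e-07), and *CHAT* by a count ratio of 111 (exact 95% counting interval 43.8 to 332), from levels of at most 1.499 and 1.18 CPM. Of the 23 *CHAT* counts in THA, 11 were from Rhesus 3 and none from 3 of the 8 animals, and the ratio without Rhesus 3 was 57.1. The nicotinic subunits *CHRNA2*, *CHRNA3*, *CHRNA4*, *CHRNA5* and *CHRNB4* were higher in THA (5 of 14 tested, where 9.81% of all genes were higher), and *CHRNA10* and *CHRNE* were lower. *CHRNA2* reached 247 CPM in THA against 13.4 CPM in cortex, and *CHRNA4* 109.6 against 7.90 CPM.

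The remaining structures were compared with the cortex in the same fit, and all these comparisons share the cortical samples. AMY differed in 2 of the 7 genes, where 9.54% of all genes were called and 4.5% were lower: *CHRM2* (6.41 ± 1.84 CPM) was lower by a log2FC of -1.58 (SE 0.37, FDR = 0.000287) and *CHRM3* (30.5 ± 6.98 CPM) by -2.40 (SE 0.29, FDR = 1.01e-11). HIP differed in 4 genes, where 12.4% were called, 6.05% as higher and 6.31% as lower. *CHRM2* (log2FC -1.65, SE 0.35), *CHRM3* (log2FC -1.47, SE 0.27) and *CHRM4* (log2FC -1.09, SE 0.25) were lower in HIP. *SLC18A3* was higher by a log2FC of 2.86 (SE 0.87, FDR = 0.00439), at only 0.0282 to 0.307 CPM. *CHRM1* in AMY and HIP stayed within 2-fold of cortex (log2FC -0.04 and -0.11).

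CB differed from cortex in 6 of the 7 genes, where 25.7% of all genes were called, and all 5 receptors were lower (background 14.9%). *CHRM1* was 0.209 to 0.360 CPM (log2FC -8.97, SE 0.46, FDR = 8.08e-36), *CHRM3* 0.209 to 1.05 CPM (log2FC -8.37, SE 0.41, FDR = 1.87e-37) and *CHRM4* 0.0896 to 0.478 CPM (log2FC -5.44, SE 0.34, FDR = 1.17e-28). *CHRM2* was the receptor with the highest CPM in CB, at 2.01 to 4.69 CPM (log2FC -2.55, SE 0.38, FDR = 2.77e-09), although CPM of different genes also depend on gene length. *CHAT* had 14 counts in CB, a count ratio to cortex of 35.4 (exact 95% counting interval 12.8 to 112), or 71.5 without Rhesus 4. Between cerebellum vermis and cerebellar cortex only *CHRM2* had enough counts to be tested, and it was not called (log2FC 0.13, SE 0.19, FDR = 0.706), where 0.225% of all genes were, nor was it called by DESeq2.

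In the hippocampus, *CHRM2*, *CHRM4* and *CHRM5* of the 5 receptors tested differed between CA1, CA3 and dentate gyrus (DG) at FDR < 0.05, where 32.7% of all genes did. *CHRM2* was 5.67 to 9.67 CPM in CA1, 4.36 to 8.74 CPM in CA3 and 1.91 to 6.30 CPM in DG. CA1 exceeded DG in 7 of 8 animals (log2FC 1.37, SE 0.21, FDR = 0.000137), and so did CA3 (log2FC 1.02, SE 0.21, FDR = 0.00136), the latter falling below 2-fold without Rhesus 3, 6, 7, 10 or 11 (log2FC 0.92 to 0.99). *CHRM5* was highest in CA1, at 0.603 to 5.54 CPM (median 2.03), against 0.0969 to 1.61 CPM in CA3 and 0 to 1.01 CPM in DG. It was called against DG (log2FC 2.49, SE 0.58, FDR = 0.00349).

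Against CA3, *CHRM5* had a similar log2FC of 2.13 (SE 0.56) and was higher in CA1 in 6 of 8 animals, but edgeR gave an FDR of 0.213, whereas DESeq2 gave a log2FC of 2.60 with an adjusted p of 0.00844, and edgeR without Rhesus 11 gave 2.62 (FDR = 0.0417). CA1 against CA3 thus called 0 of the 5 genes with edgeR, where 0.0203% of all genes were called. *CHRM5* was the only 1 of the 5 with an unadjusted p under 0.05, which 1017 of all 14796 genes tested had. CA1 against DG called 2 of the 5 genes (background 3.53%) and CA3 against DG 1 (background 3.02%, or 2.22% for genes higher in CA3). The oligodendrocyte markers summed to 3418 to 8792 CPM in CA1, 4082 to 9637 CPM in CA3 and 1535 to 3140 CPM in DG, and the choroid plexus markers (3 genes) to 20.8 to 72.3, 31.5 to 937 and 94.6 to 945 CPM. Their part in the receptor differences was not tested. *CHRM1* was even across the hippocampus, at 126 to 130.3 CPM on average (FDR = 0.768).

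Within the cortex, *CHRM2*, *CHRM3* and *CHRM5* of the 5 receptors tested differed between lobes at FDR < 0.05, where 61.5% of all genes did. With 3 of 5 near that share, the count says little about these receptors in particular. All 3 genes set the occipital lobe apart, where 56.3% of all genes differed from the mean of the other lobes. *CHRM2* was 23.8 to 56.0 CPM in the occipital lobe (median 39.6, mean 39.1 ± 10.4), and the averages of the other 4 lobes had a mean of 16.6 ± 2.08 CPM. The occipital lobe was higher in 8 of 8 animals without overlap, by a log2FC of 1.23 (SE 0.06, FDR = 4.80e-18). The other lobes followed in the order temporal (18.6 CPM), parietal (17.6), limbic (16.2) and frontal (13.9).

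*CHRM5* and *CHRM3* were lowest in the occipital lobe. *CHRM5* was 0 to 0.285 CPM there (0.132 ± 0.0946) against a mean of 0.655 ± 0.120 CPM elsewhere, without overlap (log2FC -2.32, SE 0.24, FDR = 3.22e-10). *CHRM3* was 102 to 134 CPM there (118 ± 11.0) against 156 ± 12.2 CPM elsewhere, also without overlap, and by a smaller log2FC of -0.40 (SE 0.04, FDR = 2.19e-11). *CHRM1* (FDR = 0.146 across lobes) and *CHRM4* (FDR = 0.0806) were not called between lobes by edgeR. In the occipital contrast alone, to which the background of 56.3% refers, 4 of the 5 receptors passed, the fourth being *CHRM1* (log2FC -0.11, SE 0.05, FDR = 0.0488), and *CHRM4* did not (log2FC -0.09, FDR = 0.244).

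At the level of sub-regions, *CHRM2* was highest in the posterior superior occipital gyrus (pSOG, 25.8 to 62.7 CPM, mean 41.4 ± 10.8) and lowest in the ventromedial prefrontal cortex (vmPFC, 6.87 to 10.7 CPM, mean 9.15 ± 1.31), a ratio of means of 4.53. The inferior occipital gyrus (40.3 ± 12.6 CPM) and the anterior superior occipital gyrus (35.5 ± 10.4 CPM) came next. The cuneus gyrus, which is grouped with the parietal lobe, followed with 29.05 ± 11.9 CPM. The sub-region with the highest *CHRM2* lay in the occipital lobe in 7 of 8 animals, that with the lowest *CHRM3* in 6 of 8 and that with the lowest *CHRM5* in 5 of 8. *CHRM3* ran from 195 ± 23.7 CPM in the inferior frontal gyrus to 106 ± 19.4 CPM in pSOG, and *CHRM5* from 1.20 ± 0.857 CPM in the parahippocampal gyrus to 0.0637 ± 0.0794 CPM in pSOG, which held 5 counts in all.

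Over the 31 cortical sub-regions, mean *CHRM2* had a Pearson r of -0.756 with *CHRM3* and -0.635 with *CHRM5* on the log2(CPM + 1) scale. These are descriptions, since all points share the same animals and lie next to each other. *CHRM1* varied least, from 154 ± 14.1 CPM in the insula to 119.7 ± 15.6 CPM in the intraparietal sulcus, a ratio of 1.29.

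**Figure D4:**
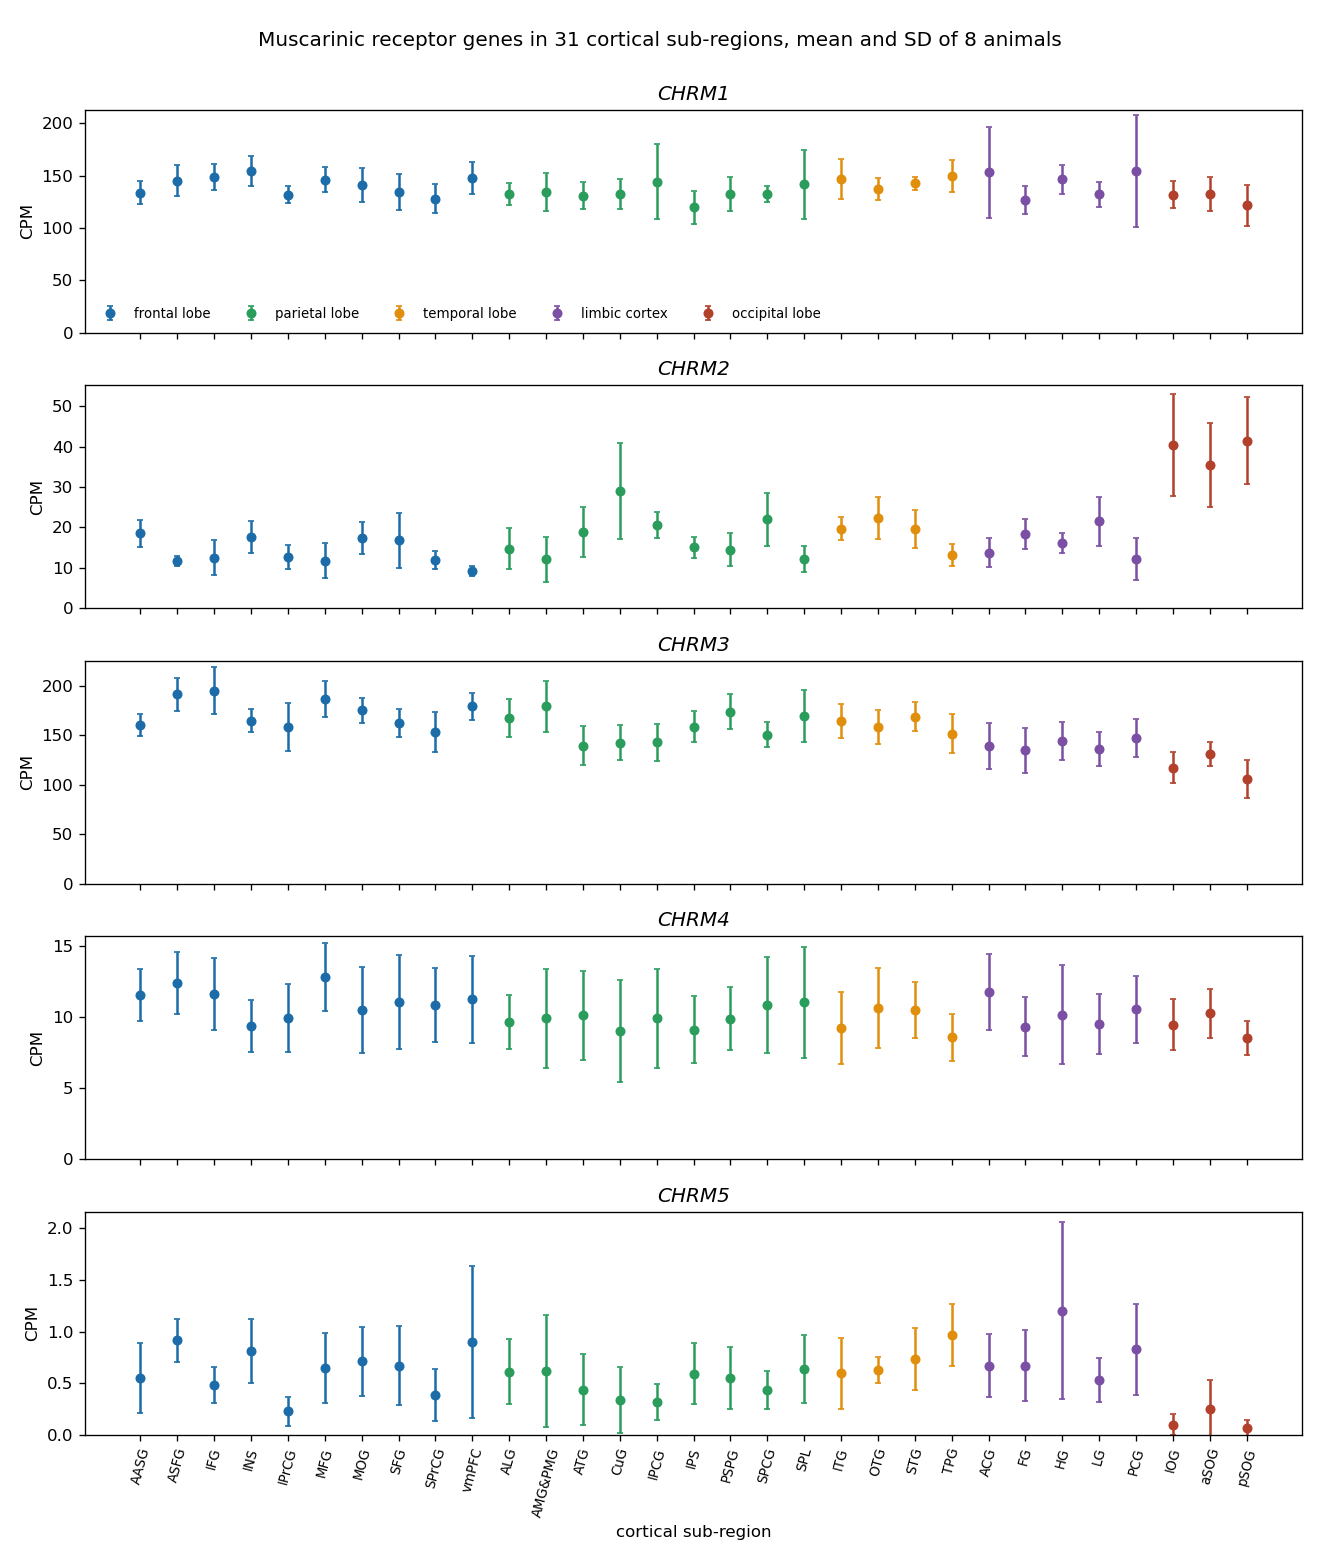
Level in CPM of the 5 muscarinic receptor genes in 31 cortical sub-regions, as mean and SD of 8 animals (error bars are cut at 0 where they would pass it), coloured by lobe. The 3 occipital sub-regions have the highest *CHRM2*, with 35.5 to 41.4 CPM, and pSOG has the lowest *CHRM3* and *CHRM5*, with 106 and 0.0637 CPM.

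The occipital lobe also differed in cell type markers. Its cortical excitatory neuron markers summed to 719 to 879 CPM, below those of every other lobe (lowest 910.0 CPM), and its oligodendrocyte markers to 3374 to 5235 CPM, against 1807 to 4525 CPM in the other lobes. Its thalamus markers (3 genes) summed to 159.8 to 227 CPM, against at most 144 CPM in any other lobe, and *CHRM2* itself was higher in THA than in cortex. Their part in the receptor differences was not tested. Among 13 tested nicotinic subunits, 3 were higher in the occipital lobe (*CHRNA1*, *CHRNA3*, *CHRNA5*) and 7 lower (*CHRNA4*, *CHRNA6*, *CHRNA7*, *CHRNA9*, *CHRNA10*, *CHRNB2*, *CHRNE*), with a median log2FC of -0.43 against 0.02 over all genes; 29.9% of all genes were higher and 26.4% lower. *CHRNB2*, the common beta subunit of brain nicotinic receptors, was 82.7 CPM in the occipital lobe and 124 CPM elsewhere.

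Each gene's nearest companions over the 51 sub-regions were the genes with the highest Pearson correlation of mean log2(CPM + 1), among 13497 named genes reaching 1 CPM. For *CHAT* they were *TNFRSF8* (r = 0.912), *FAM101B* (0.886) and *ARHGAP27* (0.878). For *SLC18A3* they included *TNFRSF8* (0.877) and *SLC17A8* (0.853), the vesicular glutamate transporter known from some cholinergic interneurons. *CHRM1* went with *KCNJ4* (0.986) and *ICAM5* (0.980), the latter a telencephalic gene, and *CHRM4* with *GRAP2* (0.938), *CPNE5* (0.936) and *CENPS* (0.933). *CHRM3* went with *CTNNA2* (0.936), *ZMAT4* (0.916) and *CYRIA* (0.911). Correlations were lower for *CHRM2*, with *RDH8* (0.801), *SIPA1L2* (0.795) and *CMPK2* (0.781), and for *CHRM5*, with mml-mir-431 (0.833), *GJD3* (0.815) and *IZUMO4* (0.810).

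Age stage and sex were tested within each region group, with 4 animals on each side and the other factor as a covariate. Of 78 pairs of a gene and a region group with enough counts, 0 were called for age (edgeR, FDR < 0.1 and more than 2-fold; 14 had an unadjusted p under 0.05) and 0 for sex (7 had an unadjusted p under 0.05). The background was 0.0166% of all gene and region group pairs for age and 0.102% for sex. DESeq2 called 2 pairs for age and 1 for sex. The shares of all pairs that DESeq2 called, or that had an unadjusted p under 0.05, were not counted.

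In VTA and MO, the cholinergic neuron genes had higher means in the young than in the mid-aged animals. *SLC18A3* in VTA was 8.79 to 43.3 CPM in the young and 0.101 to 6.92 CPM in the mid-aged animals, without overlap (log2FC -3.74, SE 1.11), but its FDR was 1.00 at an unadjusted p of 0.00639. Without the filter on low counts edgeR called it (log2FC -3.75, FDR = 2.06e-25). *CHAT* in VTA was 7.08 ± 7.22 CPM in the young and 0.820 ± 1.15 CPM in the mid-aged animals, with overlap. It too was called without the filter (log2FC -2.72, FDR = 7.03e-07). The log2FC of *SLC18A3* hardly changed with the filter while its FDR changed greatly. The FDR values without the filter are therefore not taken as evidence of an age difference. In MO, *CHAT* was 4.44 ± 3.02 against 0.598 ± 0.448 CPM and *SLC18A3* 11.2 ± 9.71 against 1.70 ± 1.29 CPM (FDR = 0.435 for both). These 2 MO pairs were the age calls of DESeq2 (adjusted p = 0.0711 and 0.0613). The same libraries varied in the sum of *ISL1* and *PRPH* given above, and the part of these genes in the age difference was not tested.

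With 4 animals on each side, some pairs can separate by chance. The share of all gene and region group pairs without overlap was not counted. A lack of overlap is therefore not read here as an age or sex difference. Of the 78 pairs, 5 did not overlap between age stages, and none of them was called in the main edgeR fit. Besides *SLC18A3* in VTA, these were *CHRM2* in cortex (14.7 to 17.7 CPM in the mid-aged, 20.03 to 23.4 CPM in the young, FDR = 0.693), *CHRM3* in PON (80.0 to 117 against 119 to 151 CPM, FDR = 1.00), *CHRM4* in STR (27.9 to 46.3 against 46.9 to 48.8 CPM, FDR = 0.906) and *CHRM5* in PIT (0.0962 to 0.775 against 1.18 to 1.82 CPM, FDR = 0.341). Between the sexes 1 pair did not overlap, *CHRM2* in SN, at 9.69 to 10.9 CPM in females and 6.27 to 8.31 CPM in males (log2FC 0.46, SE 0.20, FDR = 1.00).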

How the data were processed

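Total RNA from 51 sub-regions, each dissected from 8 macaque brains, had been sequenced after ribosomal RNA depletion. The authors trimmed samples of poor read quality with Trim Galore 0.4.4, aligned the reads with HISAT2 2.0.5 to the Mmul 8.0.1 genome and counted reads per gene of Ensembl release 91 with HTSeq 0.6.1, and the deposited values are raw read counts per gene. How HTSeq treated strand and overlapping genes is not given in the sources used here. The assignment of reads of overlapping genes, such as *CHAT* and *SLC18A3*, is therefore uncertain. The ATAC-seq samples and 8 midbrain RNA samples of the series were not used here.

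Samples were grouped by the sub-region in their labels, and animals were identified by the labels. A reference table named 17572 genes and the gene names of the study a further 583, among them *CHRM2*. The genes described here and the accompanying gene lists were chosen with earlier results of these data known. Genes named in the text are the listed genes, the members of the 4 lists, the marker genes, and for each gene its 3 most correlated genes with at least 1 CPM in some sub-region. Values of some genes under this rule are not reported here.

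Counts were summed per animal and region group, or per animal and cortical lobe, or kept per sub-region within striatum, hippocampus and cerebellum, and fitted with edgeR 4.0.16 (R 4.3.3, limma 3.58.1): filterByExpr, TMM, and a quasi-likelihood F test with the animal as a block. The animal pairs the samples, since all sub-regions came from the same 8 animals. The median correlation of deviations from the group means was 0.413 for 960 pairs of samples of the same animal and -0.0552 for 6720 pairs of different animals. P-values were adjusted by Benjamini-Hochberg over all genes tested. Tests across several groups were called at FDR < 0.05. The occipital contrast was also called at FDR < 0.05, whether or not the test across lobes passed. Region contrasts were called at FDR < 0.05 and a log2FC beyond 1 in size. Age and sex were fitted together in each region group, adjusted over the genes of that group and called at FDR < 0.1 with the same fold threshold. Exact sign-flip permutation tests (scipy 1.17.1) were two-sided over the 8 animals, on log2(CPM + 1). The fitting was tested on simulated data. Alternatives were DESeq2 1.42.0, DESeq2 size factors, no filter on low counts, no animal block, no covariate in the age and sex fits, another pseudocount and leaving out each animal in turn. Counting intervals are exact 95% intervals, and fold limits against a group without counts take 3 counts over the group. Depth was 7784678 to 31083490 counts per sample.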

Additional observations from a re-analysis of the deposited data

Results flagged for a closer look

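In 95 sets of 8 samples, 1 set for each gene and region group with more than 3 counts in some animal, the gap between the highest or lowest sample and its nearest neighbour was set against the range, and 17 sets had a sample standing apart by Dixon's criterion. Chance gives about 1 in 20 only for normally distributed values, and CPM were used here without a log. Every sample standing apart was the highest of its set. No excess over chance is therefore read from this count. No explanation was tested for them.

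In HTHA, Rhesus 11 had *CHAT* at 32.4 CPM (the next animal 1.69) and *SLC18A3* at 36.5 CPM (next 4.16). In the same structure Rhesus 6 had *CHRM1* at 107 CPM (next 8.43), *CHRM3* at 104 CPM (next 39.1) and *CHRM4* at 9.30 CPM (next 4.02). In GP, Rhesus 3 had *CHRM1* at 19.9 CPM (next 4.90) and *CHRM4* at 5.64 CPM (next 1.55), and Rhesus 6 had *CHAT* at 5.27 CPM (next 2.10).

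In VTA, Rhesus 7 had *CHAT* at 17.5 CPM (next 6.32) and *CHRM4* at 3.25 CPM (next 1.29), and in PON the same animal had *CHRM2* at 147 CPM (next 92.0). Rhesus 11 had *CHRM2* at 10.1 CPM in PIT (next 0.221) and Rhesus 3 had it at 2.74 CPM in CC (next 1.24). Rhesus 2 had *CHRM3* at 107 CPM in PA (next 76.8) and *CHRM4* at 17.3 CPM in AMY (next 12.8). Rhesus 4 had *CHRM4* at 3.24 CPM in MO (next 1.57), and Rhesus 6 had *SLC18A3* at 0.313 CPM in CB (next 0.136), from 7 counts.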

How the results depend on the processing

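No called log2FC of the 7 genes reversed under any alternative run, and 8 of 98 log2FC, none of them called, changed sign in at least 1 setting. Of single values, 1124 kept their side of the threshold, 25 lost it and 27 gained it. Without the animal block (the pairing of samples by animal), the number of called genes was 7 across region groups, 4 for STR against cortex, 6 for GP against STR, 6 for MO against PON, 5 for SN against VTA, 5 for THA, 2 for AMY, 4 for HIP and 6 for CB against cortex, 0 between cerebellar parts, 3 in the hippocampus and 3 between lobes, as with the block, but 5 rather than 7 between striatal sub-regions. With 1 animal left out, the counts ranged from 4 to 5 for STR against cortex, 5 to 7 for GP against STR, 3 to 5 for SN against VTA, 4 to 5 for HIP, 6 to 7 in the striatum, 2 to 3 in the hippocampus and 3 to 4 between lobes; the others did not change. SN against VTA fell from 5 to 3 without Rhesus 7 and without Rhesus 8. Leaving HTHA of Rhesus 6 out of the test across region groups, chosen after seeing the data, also gave 7. The count ratios without 1 animal were also added after seeing the data.

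For age, 0 pairs were called with edgeR, 3 without the filter on low counts (*SLC18A3* and *CHAT* in VTA, and *CHRM2* in PIT with log2FC 6.00, FDR = 0.0615), 2 with DESeq2 and 0 to 1 with 1 animal left out, the 1 being *SLC18A3* in VTA without Rhesus 6 (log2FC -6.89, FDR = 0.00549). For sex, 0 were called with edgeR, 1 without the filter, 1 with DESeq2 and 0 to 2 with 1 animal left out, the 2 being *CHRM2* and *CHRM3* in PIT without Rhesus 7. The cause of these changes was not tested, and the shares of all pairs called under these alternatives were not counted. Depth limits *CHAT* and *SLC18A3* most, since their levels outside the cholinergic structures rest on single reads.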
